A study of Homo sapiens with 36 samples.

Results

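HEL, a human erythroleukemia cell line, was electroporated with TAL1 siPool 2, 1 of 2 pools of siRNAs against TAL1, and its RNA was compared with that of HEL electroporated with a non-targeting siRNA pool. Libraries were taken by their labels, and the comparison holds 6 of the 36 libraries of the series, 3 per pool, each labelled bio rep 1, 2 or 3. A further 3 HEL libraries with TAL1 siPool 1 entered the same fit and served to ask where the 2 TAL1 pools differed. The remaining libraries came from K562, another leukemia line, and were not used. The siRNA sequences, the doses and the time between electroporation and harvest are not given in the sources used here, and all values come from 1 cell line. The labels describe polyA RNA extracted with phenol-chloroform and Trizol and HEL libraries made by Novogene with an Abclonal kit. The comparison asks which transcripts changed with TAL1 siPool 2 in these cells. Whether a change came from the loss of TAL1 or from another effect of this pool was not tested.

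TAL1 is a basic helix-loop-helix transcription factor that pairs with E proteins and binds E-boxes, short DNA motifs of the form CANNTG. In blood cells it works in a complex with the adaptor LMO2, the bridging protein LDB1 and a GATA factor such as GATA1, so that E-boxes and GATA motifs are often bound together. The complex is known for switching on red cell genes, among them globins, heme enzymes and membrane proteins, and it also acts in megakaryocytes and blood stem cells.

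Library depth was 25.4, 19.3 and 15.9 M counts for bio reps 1, 2 and 3 of siPool 2, 22.8, 22.5 and 21.1 M for siPool 1 and 27.0, 23.4 and 23.4 M for the non-targeting pool. Libraries of bio rep 1 stood apart from those of bio reps 2 and 3 in every group. The chi-square per degree of freedom between libraries of 1 group was 20.4 to 30.6 where bio rep 1 was in the pair and 4.39 to 5.87 between bio reps 2 and 3, so no 2 libraries were copies of each other. Values below are in CPM, counts scaled to the library's total with TMM factors, and are given in the order bio rep 1, 2 and 3. Every log2 change is siPool 2 minus non-targeting pool with its standard error from edgeR, fitted with bio rep number as a block, and calls rest on an adjusted p (Benjamini-Hochberg) under 0.05. Nothing in the sources says that bio reps were separate cultures, so the p-values measure the spread between these libraries.

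The targeted gene was examined first. TAL1 (ENSG00000162367.7, chromosome 1) had 179.6, 190.5 and 195 CPM in siPool 2 libraries, 165, 191 and 182 in siPool 1 libraries and 439, 469 and 491 in non-targeting libraries. All 3 siPool 2 libraries lay below every non-targeting library, at a mean of 188 ± 7.83 CPM, against 466 ± 26.2 CPM with the non-targeting pool (SD, n = 3 each), and 40.4% of the TAL1 RNA was left by the fit. The log2 change was -1.31 ± 0.06 (adjusted p = 8.44e-16), and the call held in every setting tried. The 2 TAL1 pools did not differ detectably in TAL1 RNA, with a log2 difference of 0.07 ± 0.06 (adjusted p = 0.445) for siPool 2 minus siPool 1.

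Partners of TAL1 moved by small amounts or did not pass the test. LMO2 had 191, 207 and 202 CPM in siPool 2 libraries, against 173, 198 and 196 in non-targeting libraries, and the groups overlapped (log2 change 0.08 ± 0.06, adjusted p = 0.433). LDB1 was likewise within the spread (log2 change 0.12 ± 0.07, adjusted p = 0.322). GATA1 had a log2 change of -0.14 ± 0.08 (adjusted p = 0.320), and LYL1, the closest relative of TAL1, had 0.17 ± 0.08 (adjusted p = 0.205). Without the siPool 2 library of bio rep 1, LDB1 (adjusted p = 0.0301) and LYL1 (adjusted p = 0.0358) were called higher. With siPool 1, against the same non-targeting libraries, GATA1 had -0.43 ± 0.08 (adjusted p = 2.64e-04) and LYL1 -0.25 ± 0.08 (adjusted p = 0.0329). Tested directly, siPool 2 minus siPool 1 gave 0.41 ± 0.08 (adjusted p = 6.55e-04) for LYL1. For GATA1 it gave 0.30 ± 0.08 (adjusted p = 0.0125), a call lost in 3 of 12 fits that left out a library or a bio rep number. These 12 include fits without a non-targeting library, which is not among the libraries compared.

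Of 23 tested genes of the complex and its partners, 3 were called higher and 4 lower. Over all 16688 tested genes, 10.2% were called, 4.97% higher and 5.18% lower, and the median log2 change was -0.01. Beside TAL1 itself, the co-repressor CBFA2T3 fell, with 156, 168 and 178 CPM in siPool 2 libraries, against 211, 217 and 238 in non-targeting libraries, which did not overlap (log2 change -0.41 ± 0.07, adjusted p = 8.31e-05). RUNX1, a transcription factor of blood formation, had 710.0, 636 and 618 CPM in siPool 2 libraries, against 797, 828 and 904 in non-targeting libraries, again without overlap, and fell by a smaller amount (log2 change -0.36 ± 0.06, adjusted p = 1.02e-04). Both calls also held without the block (adjusted p = 0.0442 and 0.0445). ID2, an inhibitor of helix-loop-helix factors, had 58.9, 82.4 and 75.8 CPM in siPool 2 libraries, against 45.4, 60.3 and 62.99 in non-targeting libraries. Its groups overlapped and it rose within the pairs of equal bio rep number (log2 change 0.36 ± 0.07, adjusted p = 9.19e-04), a call that was lost without bio rep 2 (adjusted p = 0.0811) and without the block (adjusted p = 0.367). The other called members, named after their values were seen, were GATA2 (log2 change 0.23 ± 0.06, adjusted p = 0.0108) and SSBP2 (log2 change 0.48 ± 0.12, adjusted p = 0.00725), which rose, and ID1 (log2 change -0.37 ± 0.08, adjusted p = 0.00307), which fell. The count called higher was 1 without bio rep 2, without bio rep 3 or without the non-targeting library of bio rep 3, 5 without the siPool 2 library of bio rep 1, and 0 without the block, where ID1 was not called either.

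Across all tested genes, siPool 2 changed many transcripts and most of them by little. In all 1694 genes were called, 829 higher and 865 lower, and the median size of a called log2 change was 0.35. Of the called genes, 78 of those higher and 33 of those lower changed 2-fold or more. A total of 1083 called genes had groups that did not overlap, against 2860 of all tested genes (17.1%). The number called moved strongly with the libraries used. The comparison was repeated in 9 left-out fits, each without 1 siPool 2 library, 1 non-targeting library or all libraries of 1 bio rep number. Without bio rep 1, whose libraries stood apart, 1533 genes were called. The number was 731 without bio rep 2, 806 without bio rep 3, 792 or 870 without the siPool 2 library of bio rep 2 or 3, and 967 or 795 without the non-targeting library of bio rep 1 or 3. Without the block 176 genes were called, 82 higher and 94 lower (1.05% of those tested), and all 176 were also called with it.

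**Figure D1:**
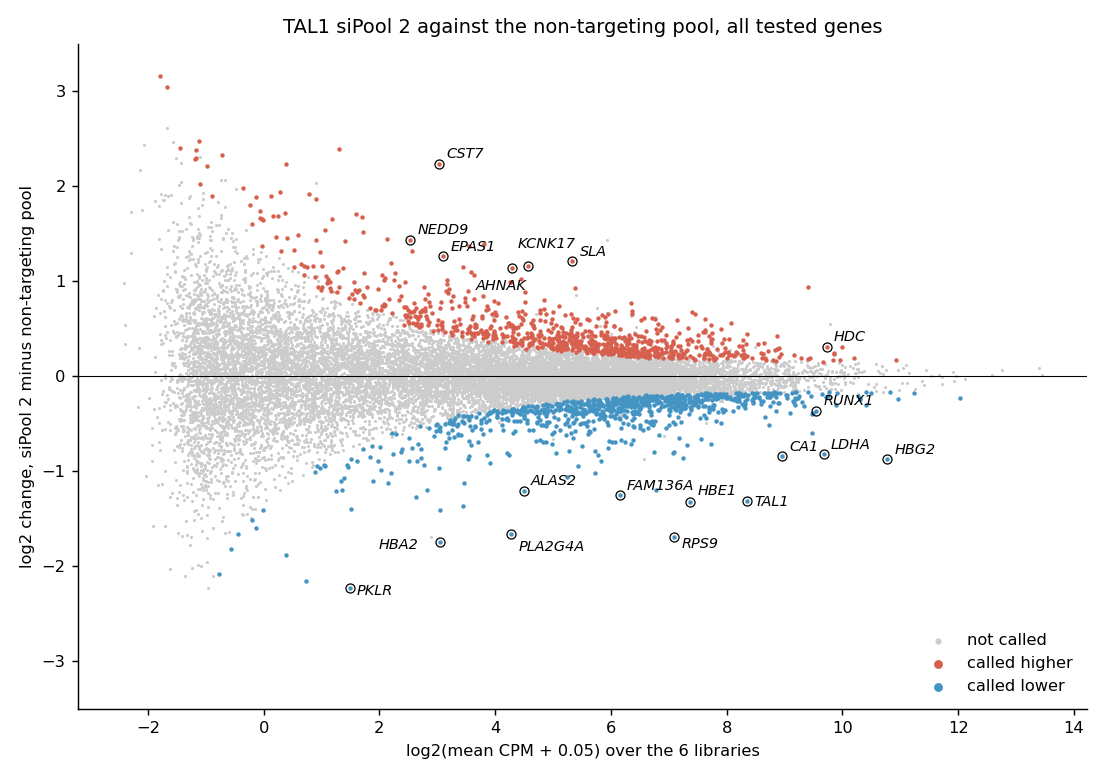
Log2 change of each of the 16688 tested genes (vertical axis, siPool 2 minus non-targeting pool) against its mean level over the 6 libraries (horizontal axis, log2 of CPM + 0.05). Each point is a gene, red if called higher, blue if called lower and grey if not called. TAL1, globins, PKLR and PLA2G4A lie far below the line at 0, CST7 and NEDD9 above it, and most called genes lie near the line.

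Of the 12 largest falls among genes with a mean of at least 5 CPM, 5 were red cell genes (HBA2, HBA1, HBE1, ADD2 and ALAS2). The globins had the lowest median of the lists. Of 11 listed genes, globins and the globin chaperone AHSP, 9 passed the low-count filter, 5 were called lower and 0 higher, and the median log2 change of the tested members was -0.87. HBE1, the embryonic beta-type globin, had 85.3, 104 and 94.4 CPM in siPool 2 libraries, 92.6, 87.6 and 78.6 in siPool 1 libraries and 207, 242 and 259.7 in non-targeting libraries. Its siPool 2 libraries all lay below its non-targeting libraries (log2 change -1.32 ± 0.08, adjusted p = 3.71e-12). HBG2, a fetal globin, had 1219, 1337 and 1168 CPM in siPool 2 libraries, 1033, 1207 and 883 in siPool 1 libraries and 2116, 2274 and 2412 in non-targeting libraries, also without overlap between siPool 2 and non-targeting libraries (log2 change -0.87 ± 0.07, adjusted p = 3.96e-08). The alpha globins were low in HEL and fell too, HBA2 with 4.91, 3.58 and 3.001 CPM in siPool 2 libraries, against 15.8, 9.05 and 13.1 in non-targeting libraries (log2 change -1.74 ± 0.24, adjusted p = 4.42e-05) and HBA1 with 6.19, 6.29 and 5.696 CPM in siPool 2 libraries, against 15.6, 15.2 and 15.8 in non-targeting libraries (log2 change -1.36 ± 0.16, adjusted p = 1.02e-06). HBA1 with HBA2 and HBG1 with HBG2 are near-identical copies between which reads can be split, so the value of each single copy is uncertain. HBQ1, a theta globin named after its values were seen, also fell (log2 change -0.82 ± 0.24, adjusted p = 0.0267), although not without the block. HBG1 (log2 change -0.87 ± 0.26, adjusted p = 0.135), HBZ (-1.19 ± 0.67, adjusted p = 0.313), HBB (-0.33 ± 0.15, adjusted p = 0.178) and HBD (-0.07 ± 0.18, adjusted p = 0.882) were not called, and HBM and AHSP did not pass the filter. The globin count was 4 or 5 in the fits that left out a library or a bio rep number, and 4 without the block.

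PKLR (ENSG00000143627.13, chromosome 1), the pyruvate kinase of liver and red cells, had the lowest log2 change among the named genes. It was scarce, with 0.639, 0.716 and 1.65 CPM in siPool 2 libraries, 1.57, 2.18 and 1.700 in siPool 1 libraries and 4.32, 5.17 and 3.99 in non-targeting libraries. The siPool 2 values rest on 16, 14 and 27 counts, against 115, 121 and 93 counts in non-targeting libraries, and the groups did not overlap. The log2 change was -2.22 ± 0.31 (adjusted p = 1.28e-05), and the difference from siPool 1 did not pass the test (log2 difference -0.91 ± 0.33, adjusted p = 0.0656). Of 12 tested red cell enzymes, 4 were called lower and 0 higher, with a median log2 change of -0.17. CA1, a carbonic anhydrase, had 362, 370.3 and 340.3 CPM in siPool 2 libraries, against 645, 630.3 and 641 in non-targeting libraries and was tightly grouped on both sides (log2 change -0.84 ± 0.05, adjusted p = 7.21e-12). BLVRB, which reduces biliverdin and flavins in red cells, had 21.2, 32.8 and 34.97 CPM in siPool 2 libraries, against 50.98, 63.4 and 54.2 in non-targeting libraries (log2 change -0.94 ± 0.11, adjusted p = 9.15e-07). CA2, another carbonic anhydrase, had 27.3, 19.4 and 18.8 CPM in siPool 2 libraries, against 36.5, 33.4 and 34.99 in non-targeting libraries (log2 change -0.69 ± 0.11, adjusted p = 6.91e-05). Neither gene's groups overlapped. The count of 4 stood in every fit that left out a library or a bio rep number. Without the block 3 were called, CA2 being lost (adjusted p = 0.0666).

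**Figure D2:**
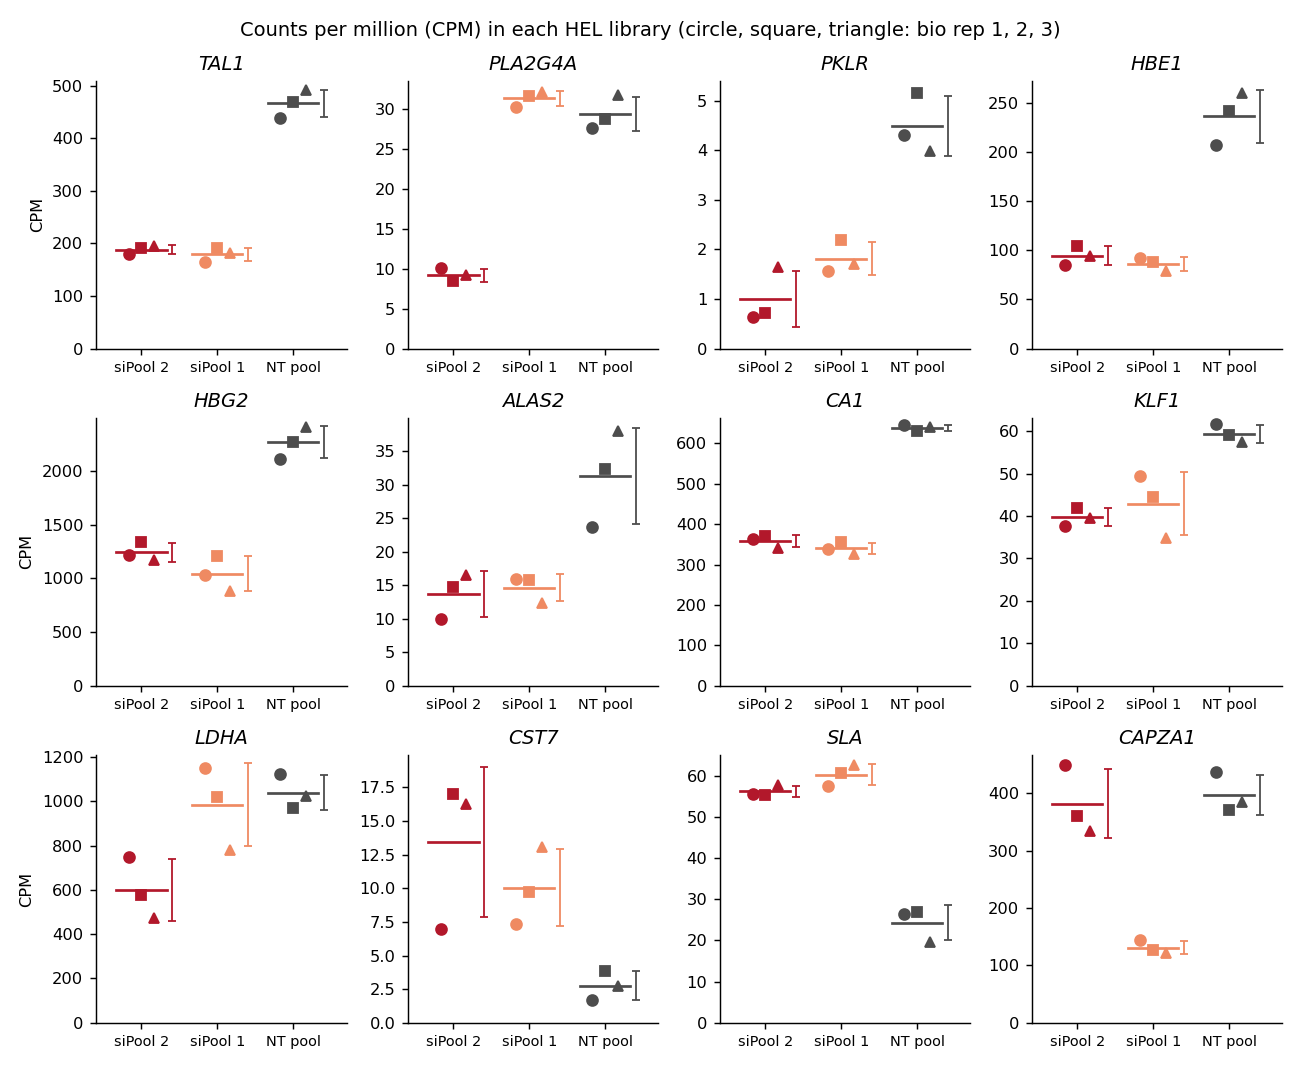
Level of 12 genes in each of the 9 HEL libraries (vertical axes, CPM on linear scales that start at 0), for siPool 2 (red), siPool 1 (orange) and the non-targeting pool (grey, labelled NT pool). Symbols mark the bio rep, horizontal lines the mean and vertical bars the SD (n = 3 each). TAL1, PKLR, HBE1, HBG2, ALAS2, CA1 and KLF1 lie lower with both TAL1 pools than with the non-targeting pool, PLA2G4A and LDHA have their lowest libraries with siPool 2, and CAPZA1 with siPool 1.

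More than 1 step of heme synthesis fell, the erythroid first enzyme most. ALAS2, the red cell form of the enzyme that starts heme synthesis, had 9.899, 14.7 and 16.5 CPM in siPool 2 libraries, 15.9, 15.7 and 12.3 in siPool 1 libraries and 23.7, 32.4 and 37.99 in non-targeting libraries. Every siPool 2 library lay below every non-targeting library (log2 change -1.20 ± 0.15, adjusted p = 1.53e-05, adjusted p = 0.0151 without the block). ALAS1, the form used by other tissues and named for that contrast after its values were seen, was not called (log2 change 0.17 ± 0.07, adjusted p = 0.109). Of 15 tested genes of heme synthesis and mitochondrial iron import, 9 were called lower and 0 higher, with a median log2 change of -0.29. ABCB10, a mitochondrial transporter of developing red cells, had 84.4, 96.6 and 83.1 CPM in siPool 2 libraries, against 102, 121 and 116 in non-targeting libraries and fell without overlap (log2 change -0.36 ± 0.07, adjusted p = 4.28e-04). FECH, which puts iron into heme, had 87.6, 89.5 and 82.1 CPM in siPool 2 libraries, against 98.7, 112 and 111 in non-targeting libraries (log2 change -0.31 ± 0.07, adjusted p = 0.00252), and its call was lost without bio rep 2 (adjusted p = 0.0828) or bio rep 3 (adjusted p = 0.0539). The count of 9 was 2 without bio rep 2, 4 or 3 without the siPool 2 library of bio rep 1 or 2, 3 without the non-targeting library of bio rep 2, and 1, ALAS2, without the block.

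The red cell membrane list held the most called members. Of 23 tested genes 13 were called lower and 1 higher, and the median log2 change was -0.23. ADD2, beta-adducin, which links spectrin to actin, had 3.71, 3.74 and 3.37 CPM in siPool 2 libraries, against 8.903, 7.94 and 9.13 in non-targeting libraries (log2 change -1.27 ± 0.19, adjusted p = 4.11e-05). GYPB, a glycoprotein of the red cell surface, had 24.8, 23.4 and 23.6 CPM in siPool 2 libraries, against 36.1, 42.3 and 39.2 in non-targeting libraries and fell (log2 change -0.71 ± 0.09, adjusted p = 4.48e-06). Neither ADD2 nor GYPB overlapped between siPool 2 and non-targeting libraries. RHD, the D antigen protein, had 60.1, 80.9 and 85.4 CPM in siPool 2 libraries, against 87.9, 128 and 120.2 in non-targeting libraries and fell (log2 change -0.57 ± 0.07, adjusted p = 2.40e-06), although not without the block (adjusted p = 0.138). Reads of RHD and RHCE, and those of GYPB and its near copies, can be shared, which makes the single values uncertain. The member called higher, named after its values were seen, was TMOD1, which caps actin filaments (log2 change 0.72 ± 0.17, adjusted p = 0.00612). It was not called without the siPool 2 library or the non-targeting library of bio rep 3, nor without the block, and 2 members were called higher without bio rep 1 or its siPool 2 library. The count called lower was 10 to 12 in the left-out fits and 6 without the block.

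Iron genes moved less, and the exporter went the other way. SLC40A1, ferroportin, the cell's iron exporter, had 376, 395 and 362 CPM in siPool 2 libraries, 402, 370.3 and 361 in siPool 1 libraries and 275, 284 and 271 in non-targeting libraries. Its siPool 2 libraries all lay above its non-targeting libraries (log2 change 0.45 ± 0.06, adjusted p = 1.86e-06), a call that held in every setting. Of 13 tested iron handling genes 1 was called higher and 3 lower, with a median log2 change of -0.11. Those called lower were STEAP3 (log2 change -0.27 ± 0.07), ACO1 (-0.26 ± 0.07) and TFR2 (-0.23 ± 0.07). Each lost its call in 5 or 6 of the 9 left-out fits, and 0 of the 3 were called without bio rep 2, without the siPool 2 library of bio rep 2 or without the block. Without bio rep 3 or any 1 non-targeting library, 1 was called.

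Among 18 tested erythroid transcription factors 4 were called lower, TAL1 itself included, and 0 higher, with a median log2 change of -0.06. KLF1, a zinc finger factor that activates globin and red cell membrane genes, had 37.7, 41.96 and 39.6 CPM in siPool 2 libraries, 49.4, 44.5 and 34.7 in siPool 1 libraries and 61.7, 59.1 and 57.5 in non-targeting libraries. The siPool 2 and non-targeting groups did not overlap (log2 change -0.58 ± 0.09, adjusted p = 5.44e-05), and the call held in every setting. GFI1B, a repressor of erythroid and megakaryocytic cells, had 184, 179 and 187 CPM in siPool 2 libraries, against 207, 234 and 248 in non-targeting libraries. It fell without overlap (log2 change -0.32 ± 0.06, adjusted p = 5.70e-04), but was not called without bio rep 2 (adjusted p = 0.0614) or without the block (adjusted p = 0.106). IKZF1, a lymphoid and erythroid factor, had a log2 change of -0.22 ± 0.06 (adjusted p = 0.0224) and lost its call in 7 of the 9 left-out fits (adjusted p 0.0789 to 0.259). Here the pools differed, since IKZF1 had 101, 98.5 and 92.8 CPM with siPool 2 and 138, 142 and 148 CPM with siPool 1, against 112, 116 and 113 CPM with the non-targeting pool (log2 difference of the pools -0.55 ± 0.06, adjusted p = 4.35e-07). The count of 4 was 2 without bio rep 2 and 2, TAL1 and KLF1, without the block.

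The promoters of 3 of these red cell genes and of PLA2G4A are printed to show the motifs that TAL1 complexes are known to read. PLA2G4A, described below, was called lower with siPool 2 but was not called with siPool 1. Sequences and coordinates are RefSeq's on GRCh38.p14, 250 bases before to 50 after the start, whereas the counts were made on hg19. Capitals mark matches to GATAA on either strand, so also TTATC, and to CANNTG, which reads the same on both strands. For PKLR the more upstream of 2 RefSeq starts is shown.
ALAS2 promoter, chrX:55030928-55031227, minus strand: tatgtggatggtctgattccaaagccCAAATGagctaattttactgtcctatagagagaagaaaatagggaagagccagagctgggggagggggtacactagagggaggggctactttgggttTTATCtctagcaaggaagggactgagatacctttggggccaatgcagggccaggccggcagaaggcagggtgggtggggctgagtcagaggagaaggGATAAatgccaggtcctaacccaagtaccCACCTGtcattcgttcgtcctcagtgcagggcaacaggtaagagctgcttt
PKLR promoter, chr1:155301389-155301688, minus strand: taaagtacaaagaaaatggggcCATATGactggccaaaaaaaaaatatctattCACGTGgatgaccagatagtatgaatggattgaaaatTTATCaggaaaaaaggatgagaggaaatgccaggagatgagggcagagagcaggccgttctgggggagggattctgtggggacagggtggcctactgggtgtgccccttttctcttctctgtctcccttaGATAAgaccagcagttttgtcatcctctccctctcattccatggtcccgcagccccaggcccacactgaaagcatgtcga
KLF1 promoter, chr19:12887152-12887451, minus strand: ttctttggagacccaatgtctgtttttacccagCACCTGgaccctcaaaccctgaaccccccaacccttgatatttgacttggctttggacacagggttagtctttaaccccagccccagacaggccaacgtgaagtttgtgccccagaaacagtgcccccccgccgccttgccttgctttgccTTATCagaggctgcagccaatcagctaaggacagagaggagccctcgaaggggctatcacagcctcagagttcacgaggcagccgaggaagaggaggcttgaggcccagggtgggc
PLA2G4A promoter, chr1:186828699-186828998, plus strand: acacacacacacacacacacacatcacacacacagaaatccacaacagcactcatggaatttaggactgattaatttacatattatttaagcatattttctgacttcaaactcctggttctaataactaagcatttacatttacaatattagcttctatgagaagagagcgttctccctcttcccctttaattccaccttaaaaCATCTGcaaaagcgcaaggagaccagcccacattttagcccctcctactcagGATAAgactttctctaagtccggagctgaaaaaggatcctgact
The ALAS2 and PKLR windows each held 2 GATAA and 2 CANNTG matches, and those of KLF1 and PLA2G4A held 1 of each. The other PKLR start had no GATAA match. Other genes were counted at the first start listed for each, and those called lower went both ways. ADD2, BLVRB, GFI1B, FECH, TMEM14C, IKZF1 and ACO1 were among those with 0 GATAA matches. TAL1, with 2, and FAM136A, ATP13A3, ABCB10, RHD, GYPB and STEAP3, with 1 each, were among those that held the motif. Genes called higher went both ways too. CPA3 and ALOX5AP, with 2 each, and HDC, ID2, RAB27B, MXD1 and PHGDH, with 1 each, held GATAA. NEDD9, SYTL1, PLEKHA6, BMF, EPAS1, KCNK17, AHNAK, MYCN, ARHGEF40 and SLC40A1 were among those with 0. Over all 35116 promoters of the same length, with every listed start counted, 22.7% held GATAA and 68.7% held CANNTG. A match describes the letters and is no evidence of binding, and the data hold no measure of TAL1 binding in HEL.

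Outside the red cell lists, the largest falls included genes that set siPool 2 apart from siPool 1. PLA2G4A (ENSG00000116711.8, chromosome 1), the cytosolic phospholipase that releases arachidonate from membranes, had 10.02, 8.39 and 9.19 CPM in siPool 2 libraries, 30.3, 31.6 and 32.1 in siPool 1 libraries and 27.5, 28.7 and 31.7 in non-targeting libraries. Its siPool 2 libraries lay far below all other HEL libraries, and siPool 1 and non-targeting libraries overlapped. The log2 change was -1.66 ± 0.11 (adjusted p = 9.99e-12) with siPool 2, against 0.10 ± 0.10 (adjusted p = 0.567) with siPool 1, which shares the non-targeting libraries. Tested directly, siPool 2 minus siPool 1 gave -1.76 ± 0.11 (adjusted p = 4.37e-12). FAM136A, a mitochondrial protein gene, had 48.02, 39.8 and 36.8 CPM in siPool 2 libraries, 109, 75.8 and 75.97 in siPool 1 libraries and 133, 80.9 and 86.9 in non-targeting libraries. Here too every siPool 2 library lay below all others (log2 change -1.25 ± 0.08, adjusted p = 4.11e-12; siPool 2 minus siPool 1 -1.05 ± 0.08, adjusted p = 1.23e-10). Of 11 tested genes of the arachidonate pathway, PLA2G4A was the 1 called lower, and ALOX5AP, which presents arachidonate to a lipoxygenase, was the 1 called higher (log2 change 0.47 ± 0.15, adjusted p = 0.0386, lost in 7 of the 9 left-out fits and without the block). Of all tested genes, 5.18% were called lower and 4.97% higher. Without bio rep 1 or its siPool 2 library 2 of the 11 were called lower.

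LDHA, lactate dehydrogenase A, had 747, 575 and 474 CPM in siPool 2 libraries, 1151, 1019 and 780.4 in siPool 1 libraries and 1123, 971 and 1023 in non-targeting libraries. Each siPool 2 library lay below every non-targeting library (log2 change -0.82 ± 0.08, adjusted p = 1.83e-05), while siPool 1 had -0.10 ± 0.08 (adjusted p = 0.481) and the pools differed (log2 difference -0.72 ± 0.08, adjusted p = 4.42e-05). Without the block the LDHA call was lost (adjusted p = 0.0520). ATP13A3, a polyamine transporter, had 80.03, 61.3 and 58.6 CPM in siPool 2 libraries, against 178, 135 and 145 in non-targeting libraries and fell without overlap (log2 change -1.20 ± 0.07, adjusted p = 5.92e-13), further than with siPool 1 (log2 difference -0.44 ± 0.07, adjusted p = 3.88e-05). GSTP1, a glutathione transferase, had 4.31, 5.12 and 3.43 CPM in siPool 2 libraries, against 8.26, 10.6 and 10.4 in non-targeting libraries (log2 change -1.19 ± 0.18, adjusted p = 4.49e-05), and was lower than with siPool 1 (log2 difference -0.61 ± 0.19, adjusted p = 0.0261, lost in 7 of 12 fits that left out a library or a bio rep number). CTD-2643I7.1, listed without a further name, had 4.75, 4.09 and 4.59 CPM in siPool 2 libraries, against 13.8, 11.8 and 9.99 in non-targeting libraries (log2 change -1.41 ± 0.17, adjusted p = 9.38e-07). Both fell without overlap between siPool 2 and non-targeting libraries. RPS9, a ribosomal protein gene, had 53.01, 68.3 and 66.9 CPM in siPool 2 libraries, 52.6, 60.5 and 58.2 in siPool 1 libraries and 117, 261 and 255 in non-targeting libraries. The non-targeting library of bio rep 1 was lower than the other 2, and the call (log2 change -1.69 ± 0.24, adjusted p = 0.0221) was lost in 6 of the 9 left-out fits, namely without bio rep 2 or 3, without any 1 siPool 2 library or without the non-targeting library of bio rep 3 (adjusted p 0.0652 to 0.247). The RPS9 call was also lost in the fit of the 6 compared libraries alone. Of 27 tested ribosomal protein genes 1 was called higher and 1 lower, where 4.97% and 5.18% of all tested genes were. The 1 higher was RPL13 (log2 change 0.18 ± 0.06), a call lost in 7 of the 9 left-out fits and without the block, and RPS9 was the 1 called lower. Without bio rep 1 or its non-targeting library 2 were called lower.

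The largest of the 12 rises was that of CST7. It encodes cystatin F, a protease inhibitor of immune cells, and had 6.99, 16.99 and 16.3 CPM in siPool 2 libraries, 7.34, 9.72 and 13.1 in siPool 1 libraries and 1.73, 3.88 and 2.701 in non-targeting libraries. All siPool 2 libraries exceeded all non-targeting libraries, with bio rep 1 lowest in both groups (log2 change 2.24 ± 0.19, adjusted p = 1.89e-09). NEDD9, a scaffold of focal adhesions, had 6.55, 9.06 and 9.37 CPM in siPool 2 libraries, against 1.99, 4.61 and 2.87 in non-targeting libraries and rose without overlap (log2 change 1.44 ± 0.19, adjusted p = 5.08e-06; adjusted p = 0.0507 without the block). SLA, an adaptor that dampens receptor signalling in immune cells, had 55.6, 55.2 and 57.7 CPM in siPool 2 libraries, 57.6, 60.6 and 62.6 in siPool 1 libraries and 26.4, 26.98 and 19.5 in non-targeting libraries. The siPool 2 and non-targeting groups lay far apart relative to their spread (log2 change 1.21 ± 0.10, adjusted p = 9.34e-10). EPAS1, a hypoxia-inducible transcription factor, had 12.9, 12.9 and 10.2 CPM in siPool 2 libraries, 25.5, 20.3 and 21.6 in siPool 1 libraries and 5.33, 3.97 and 5.79 in non-targeting libraries. It rose with siPool 2 (log2 change 1.26 ± 0.15, adjusted p = 9.94e-07), and stood lower than with siPool 1 (log2 difference -0.90 ± 0.13, adjusted p = 2.65e-05).

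Signalling, channel and scaffold genes were also among the 12 largest rises. PLEKHA6, a pleckstrin homology protein, had 18.2, 17.8 and 14.5 CPM in siPool 2 libraries, against 6.799, 6.45 and 6.26 in non-targeting libraries (log2 change 1.37 ± 0.13, adjusted p = 2.90e-08). KCNK17, a potassium channel, had 28.2, 34.7 and 35.3 CPM in siPool 2 libraries, against 11.6, 16.8 and 15.7 in non-targeting libraries (log2 change 1.16 ± 0.11, adjusted p = 1.24e-08). AHNAK, a large scaffold protein, had 27.6, 30.4 and 22.5 CPM in siPool 2 libraries, against 12.8, 15.6 and 8.53 in non-targeting libraries (log2 change 1.14 ± 0.12, adjusted p = 2.76e-07). MYCN, a transcription factor related to MYC, had 14.2, 17.2 and 17.2 CPM in siPool 2 libraries, against 5.82, 6.83 and 10.5 in non-targeting libraries (log2 change 1.10 ± 0.14, adjusted p = 4.06e-06). None of these genes overlapped between the groups, and each call also held without the block. PLEKHA6 (log2 difference 0.41 ± 0.13, adjusted p = 0.0269) and KCNK17 (log2 difference 0.32 ± 0.10, adjusted p = 0.0339) were higher with siPool 2 than with siPool 1, each a call lost in 7 of 12 fits that left out a library or a bio rep number.

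The other 4 of the 12 largest rises, BMF, SYTL1, CAPN5 and ARHGEF40, were also higher with siPool 2 than with siPool 1. BMF, a BH3-only protein that promotes cell death, had 5.15, 9.01 and 11.3 CPM in siPool 2 libraries, 3.67, 3.61 and 5.71 in siPool 1 libraries and 2.78, 3.63 and 3.39 in non-targeting libraries. It rose with siPool 2 (log2 change 1.32 ± 0.20, adjusted p = 4.47e-05), and its log2 difference from siPool 1 was 0.93 ± 0.20 (adjusted p = 0.00145), a call lost without bio rep 2. SYTL1, an effector of vesicle traffic, had 11.2, 20.6 and 27.3 CPM in siPool 2 libraries, 4.03, 9.18 and 11.2 in siPool 1 libraries and 2.55, 13.1 and 8.53 in non-targeting libraries. Its siPool 2 group overlapped the non-targeting group, and the rise within pairs of equal bio rep number (log2 change 1.39 ± 0.20, adjusted p = 1.34e-04) was not called without the block (adjusted p = 0.482). CAPN5, a calpain protease, rose (log2 change 1.16 ± 0.15, adjusted p = 3.08e-06) and was higher than with siPool 1 (log2 difference 0.74 ± 0.14, adjusted p = 6.36e-04). ARHGEF40, a guanine nucleotide exchange factor, did the same (log2 change 1.07 ± 0.14, adjusted p = 3.38e-06; log2 difference 0.58 ± 0.13, adjusted p = 0.00295), the difference being lost without the siPool 2 library of bio rep 2.

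Megakaryocyte genes, the other differentiation program of HEL, showed no shared direction. ITGA2B, the platelet integrin chain, averaged 1005 CPM with siPool 2 and 995 CPM with the non-targeting pool (log2 change 0.01 ± 0.06, adjusted p = 0.968). Of 25 tested genes 4 were called higher and 1 lower, with a median log2 change of -0.04. RAB27B, which serves granule release in platelets, had 520.3, 496 and 487 CPM in siPool 2 libraries, against 381, 406 and 457 in non-targeting libraries and rose (log2 change 0.28 ± 0.06, adjusted p = 0.00242), a call lost without bio rep 2 (adjusted p = 0.0701) or the non-targeting library of bio rep 1 (adjusted p = 0.0548). Other calls were NBEAL2 (log2 change 0.25 ± 0.06), P2RY1 (0.22 ± 0.06) and, lower, PLEK (-0.21 ± 0.05). Each of these 3 was lost in at least 4 of the 9 left-out fits. The count called higher was 0 without bio rep 2, 1 without bio rep 3, the siPool 2 library of bio rep 2 or the non-targeting library of bio rep 1 or 3, and 2 without the siPool 2 library of bio rep 3. The count called lower was 0 to 3 in the left-out fits, and 0 were called in either direction without the block.

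Mast cell and basophil genes held more calls higher than lower. Of 15 tested genes 6 were called higher and 1 lower, with a median log2 change of 0.31, the highest of the lists. HDC, which makes histamine, had 892, 966 and 968 CPM in siPool 2 libraries, 1123, 1152 and 1147 in siPool 1 libraries and 768, 778 and 728 in non-targeting libraries. Its groups did not overlap, and it rose in every setting tried (log2 change 0.31 ± 0.05, adjusted p = 1.30e-04), to a lower level than with siPool 1 (log2 difference -0.28 ± 0.05, adjusted p = 3.98e-04). CPA3, a mast cell protease, had 22.8, 32.7 and 24.9 CPM in siPool 2 libraries, 42.3, 62.5 and 61.9 in siPool 1 libraries and 13, 21.5 and 19.3 in non-targeting libraries. It rose (log2 change 0.60 ± 0.10, adjusted p = 1.46e-04) and was likewise lower than with siPool 1 (log2 difference -1.04 ± 0.10, adjusted p = 9.27e-09), though its call was lost without the block (adjusted p = 0.285). FCER1A, the chain of the high-affinity IgE receptor that binds IgE, had 639, 634 and 576 CPM in siPool 2 libraries, 831, 866 and 869 in siPool 1 libraries and 810.3, 853 and 770.0 in non-targeting libraries and fell with siPool 2 (log2 change -0.40 ± 0.05, adjusted p = 6.92e-06), unlike with siPool 1 (log2 difference -0.47 ± 0.05, adjusted p = 3.09e-07). The count called higher was 2 without the non-targeting library of bio rep 1, 3 without bio rep 3, the siPool 2 library of bio rep 3 or the non-targeting library of bio rep 3, and 1 without the block. The summed level of the list was 2521 to 2793 CPM with siPool 2 and 3171 to 3351 CPM with siPool 1, against 2409 to 2722 CPM with the non-targeting pool. In bulk RNA, fewer cells of a type and less RNA per cell cannot be told apart.

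Markers of other cell types were summed. Non-targeting libraries held counts of each of these lists too, so the sums cannot tell foreign cells from expression by HEL itself. The sum was 316 to 342 CPM with siPool 2 for the monocyte and granulocyte list, against 303 to 360 CPM with the non-targeting pool. For the lymphoid list it was 44.5 to 47.5 CPM with siPool 2, against 37.2 to 49.95 CPM with the non-targeting pool, and for the fibroblast and endothelial list 66.0 to 73.0 CPM with siPool 2, against 43.6 to 69.0 CPM with the non-targeting pool. ELANE, FCN1, IRF8, LCK, MS4A1, EBF1, RAG2, DNTT, DCN and LUM had 0 counts in all 9 libraries. Called members were FCGR1A, higher, and FCER1G, lower, of 13 tested monocyte and granulocyte genes, NKG7, higher, of 9 lymphoid genes, and KDR, higher, of 6 fibroblast and endothelial genes. For comparison, 10.2% of all tested genes were called. FCGR1A was scarce, with 15, 18 and 7 counts in siPool 2 libraries, against 1, 4 and 5 in non-targeting libraries. NKG7 was scarce too, with 51, 46 and 33 counts, against 12, 23 and 20. KDR, a receptor for vascular endothelial growth factor, had 35.4, 39.97 and 37.4 CPM in siPool 2 libraries, against 19.8, 23.1 and 32.97 in non-targeting libraries (log2 change 0.60 ± 0.11, adjusted p = 3.38e-04) and was called in every left-out fit but not without the block (adjusted p = 0.211). FCGR1A was lost in 8, FCER1G in 5 and NKG7 in 2 of the 9 left-out fits, and 0 of the 3 were called without the block (adjusted p 0.0711 to 0.206). DESeq2 did not call FCGR1A or NKG7. Their part in the other results was not tested.

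Of 12 tested stem and progenitor genes 4 were called higher and 0 lower, with a median log2 change of 0.21. MYCN, above, was the one whose call held in every setting. ANGPT1, a ligand of the receptor TEK, had 222, 230.2 and 212 CPM in siPool 2 libraries, against 155, 190.4 and 201 in non-targeting libraries (log2 change 0.29 ± 0.07), and CD34, a surface marker of blood progenitors, had 10.2, 8.49 and 6.74 CPM in siPool 2 libraries, against 5.86, 5.38 and 6.17 in non-targeting libraries (log2 change 0.55 ± 0.16). Their groups did not overlap. THY1 was the fourth (log2 change 0.24 ± 0.07). ANGPT1 was lost in 4, CD34 in 6 and THY1 in 9 of the 9 left-out fits, and the count fell to 1 without the non-targeting library of bio rep 1 and to 1 without the block. It was 2 without bio rep 1, bio rep 2, the siPool 2 library of bio rep 1 or the non-targeting library of bio rep 2.

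**Figure D3:**
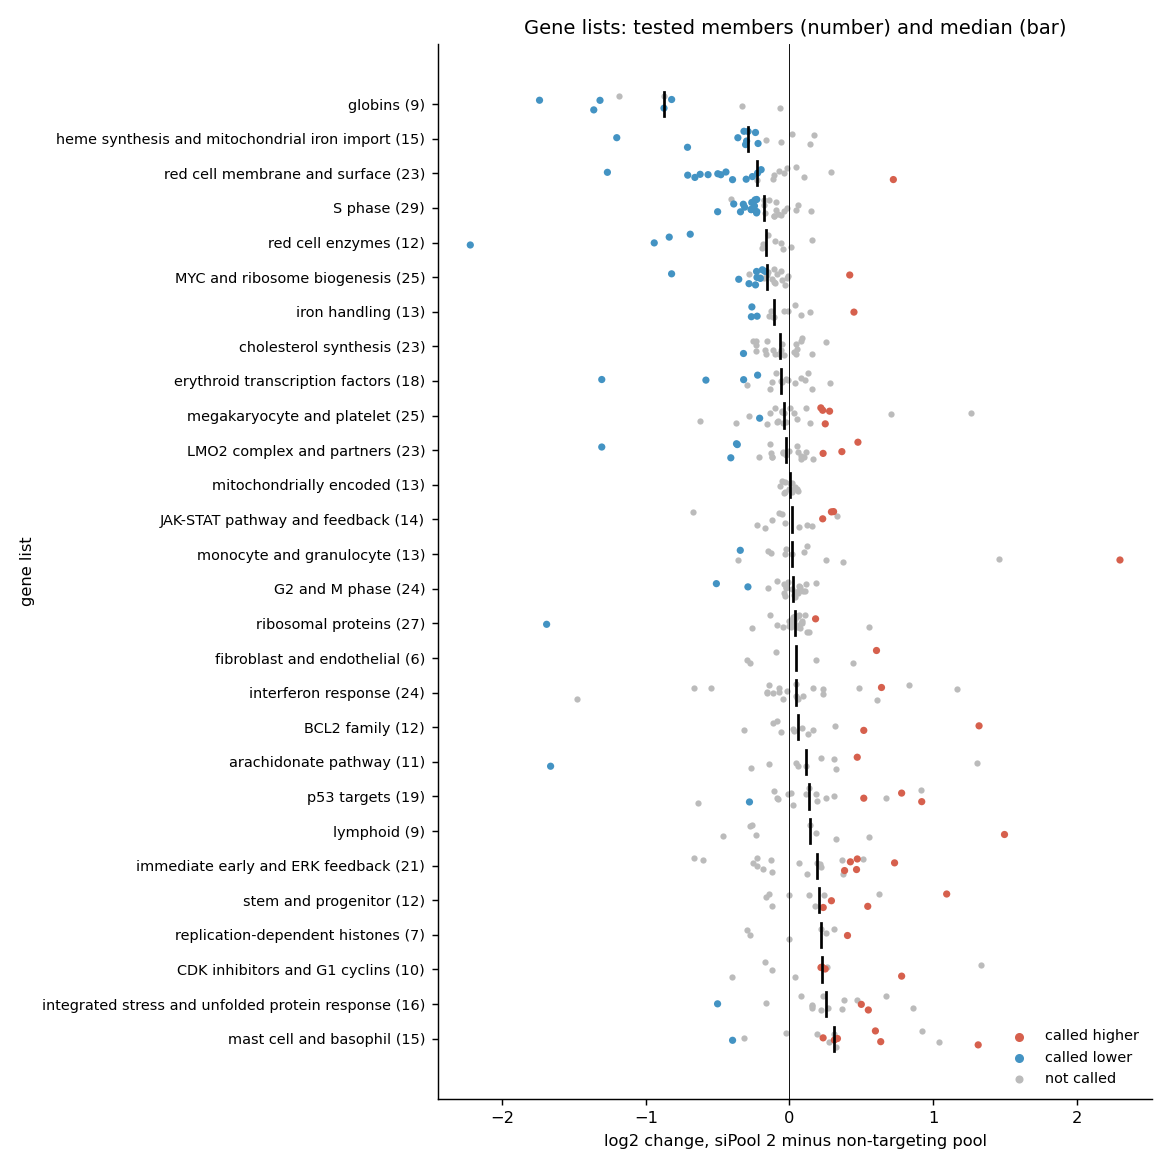
Log2 change (horizontal axis, siPool 2 minus non-targeting pool) of each tested member of 28 gene lists (rows, with the number tested), ordered by median from lowest at the top. Points are genes, red if called higher, blue if called lower and grey if not called, and black bars are medians, from -0.87 for globins to 0.31 for mast cell and basophil genes.

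S phase genes were called in 1 direction, by small amounts. Of 29 tested genes 13 were called lower and 0 higher, with a median log2 change of -0.18. GINS2, a subunit of the replicative helicase, had 33.97, 29.4 and 28.3 CPM in siPool 2 libraries, against 49.9, 37.99 and 41.9 in non-targeting libraries and fell without overlap (log2 change -0.50 ± 0.09, adjusted p = 5.69e-04). PCNA, the sliding clamp of DNA polymerases, had 160.4, 119 and 117 CPM in siPool 2 libraries, against 198, 139 and 164 in non-targeting libraries. Its groups overlapped, bio rep 1 being the highest library in each, and the change within pairs was -0.34 ± 0.07 (adjusted p = 0.00117). The PCNA call was lost without the non-targeting library of bio rep 3 (adjusted p = 0.0525). None of the 13 calls stood without the block, and the count was 2 without the non-targeting library of bio rep 3, 5 without bio rep 2, bio rep 3 or the siPool 2 library of bio rep 3, and 8 without the siPool 2 library of bio rep 2. Against siPool 1, 15 of the 29 genes were higher with siPool 2 and 1 was lower, where 7.09% and 7.48% of all tested genes were called. Of these pool calls, those of GINS2 and MCM4, higher, and RRM2, lower, were lost in 6, 9 and 5 of 12 fits that left out a library or a bio rep number. Each was also lost without the block. The median log2 change of the 29 genes was -0.18 with siPool 2 and -0.43 with siPool 1, against the same non-targeting libraries.

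Of 24 tested G2 and M phase genes 2 were called lower and 0 higher, where 5.18% and 4.97% of all tested genes were. Their median log2 change was 0.02. KIF11, a motor protein of the spindle, had 101, 81.7 and 78.3 CPM in siPool 2 libraries, 122, 116 and 103 in siPool 1 libraries and 134, 117 and 119.7 in non-targeting libraries. It fell without overlap (log2 change -0.51 ± 0.07, adjusted p = 3.97e-06) and was lower than with siPool 1 (log2 difference -0.39 ± 0.07, adjusted p = 1.26e-04). KIF20A was the other (log2 change -0.29 ± 0.08), lost in 6 of the 9 left-out fits and without the block. Of 10 tested CDK inhibitors and G1 cyclins 4 were called higher and 0 lower, with a median log2 change of 0.22. CDKN1A, the inhibitor p21, had 8.54, 9.62 and 9.07 CPM in siPool 2 libraries, 4.79, 4.06 and 4.82 in siPool 1 libraries and 4.09, 5.76 and 6.13 in non-targeting libraries. Its siPool 2 libraries lay above all others, it rose (log2 change 0.78 ± 0.17, adjusted p = 0.00332), and it was higher than with siPool 1 (log2 difference 0.99 ± 0.18, adjusted p = 2.39e-04). The CDKN1A call was lost without the non-targeting library of bio rep 1 (adjusted p = 0.0657) and without the block (adjusted p = 0.0760). CDK6 (log2 change 0.23 ± 0.06), CCND2 (0.25 ± 0.07) and CDKN2C (0.22 ± 0.07) were each lost in 5 or 6 of the 9 left-out fits. The count of 4 was 1 without the siPool 2 or the non-targeting library of bio rep 1, 2 without bio rep 1, bio rep 2, the siPool 2 library of bio rep 2 or the non-targeting library of bio rep 2 or 3, and 0 without the block.

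The MYC network and ribosome biogenesis list held 9 genes called lower and 1 higher of 25 tested, with a median log2 change of -0.16. LDHA, above, moved furthest. MAX, the partner of MYC, had 142, 148 and 152 CPM in siPool 2 libraries, 194, 228 and 210.4 in siPool 1 libraries and 172, 195 and 199.6 in non-targeting libraries. It fell without overlap (log2 change -0.35 ± 0.06, adjusted p = 1.50e-04), lower than with siPool 1 (log2 difference -0.51 ± 0.06, adjusted p = 4.45e-07). MXD1, which competes with MYC for MAX, had 41.5, 46.3 and 46.98 CPM in siPool 2 libraries, against 28.2, 36.2 and 37.05 in non-targeting libraries and rose (log2 change 0.42 ± 0.08, adjusted p = 0.00126). NOLC1, a nucleolar protein, had 503, 410.1 and 387 CPM in siPool 2 libraries, against 588, 486 and 503 in non-targeting libraries and fell within pairs, with overlap between groups (log2 change -0.28 ± 0.05, adjusted p = 6.64e-04). These calls held in every left-out fit and none stood without the block. The count called lower was 3 or 5 without bio rep 2 or 3, 4 without the siPool 2 library of bio rep 2 or 3 or the non-targeting library of bio rep 3, and 5 without the non-targeting library of bio rep 2.

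Of the calls in the p53 target, stress response, ERK feedback and JAK-STAT lists, 0 stood without the block. With the block, 4.97% of all tested genes were called higher and 5.18% lower. Of 19 tested p53 targets 3 were called higher (CDKN1A, BBC3 and TP53INP1) and 1 lower (MDM2), with a median log2 change of 0.14. BBC3, the BH3-only protein PUMA, had 8.103, 16.4 and 19.2 CPM in siPool 2 libraries, 4.93, 10.6 and 9.02 in siPool 1 libraries and 4.96, 13.2 and 12.9 in non-targeting libraries and was higher than with siPool 1 (log2 difference 0.82 ± 0.14, adjusted p = 1.81e-04). Its rise over the non-targeting pool (0.52 ± 0.14) was lost in 5 of the 9 left-out fits. The p53 count called higher was 1 without bio rep 3 or without the siPool 2 or non-targeting library of bio rep 3. MDM2 (log2 change -0.28 ± 0.07) lost its call without bio rep 2, the siPool 2 library of bio rep 2 or the non-targeting library of bio rep 1. Of 12 BCL2 family genes 2 were called higher, BMF and BBC3. PHGDH, which starts serine synthesis and belongs to the list of 16 stress response genes, had 137, 331 and 368 CPM in siPool 2 libraries, 108, 223 and 285 in siPool 1 libraries and 94.3, 262 and 236 in non-targeting libraries. Bio rep 1 was the lowest library in each group, and the rise within pairs (0.50 ± 0.07, adjusted p = 1.69e-05) was not called without the block (adjusted p = 0.828). That list had 2 called higher, 1 lower and a median log2 change of 0.25. Without bio rep 1 it had 4 called higher, and without bio rep 3 or its non-targeting library 1, while 0 to 2 were called lower in the left-out fits.

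Of 21 tested immediate early and ERK feedback genes 5 were called higher and 0 lower, with a median log2 change of 0.19. ETV5, a transcription factor induced by ERK signalling, had 65.1, 66.5 and 65.4 CPM in siPool 2 libraries, against 42.5, 46.1 and 54.6 in non-targeting libraries and rose without overlap (log2 change 0.47 ± 0.08, adjusted p = 2.79e-04), a call held in every left-out fit. PHLDA1, a pleckstrin homology protein induced by growth factors, had 7.305, 6.04 and 6.62 CPM in siPool 2 libraries, 17.02, 22.96 and 22 in siPool 1 libraries and 5.03, 4.01 and 2.96 in non-targeting libraries. It stood lower than with siPool 1 (log2 difference -1.63 ± 0.16, adjusted p = 4.47e-08). JUND, an AP-1 factor, had 112, 126 and 175 CPM in siPool 2 libraries, 80.2, 89.6 and 92.9 in siPool 1 libraries and 94.2, 109 and 109 in non-targeting libraries and stood higher than with siPool 1 (log2 difference 0.63 ± 0.08, adjusted p = 1.34e-06). Against the non-targeting pool, PHLDA1 (log2 change 0.73 ± 0.18) lost its call in 3, FOSL2 (0.42 ± 0.09) in 3 and JUND (0.38 ± 0.08) in 2 of the 9 left-out fits. The count was 3 without bio rep 3, the siPool 2 library of bio rep 1 or 3 or the non-targeting library of bio rep 1, and 0 without the block, while 2 were called lower without bio rep 1 and 3 in the fit of the 6 compared libraries alone. Of 14 tested JAK-STAT genes 3 were called higher, among them PIM2 (log2 change 0.29 ± 0.07) and SOCS2 (0.31 ± 0.09), and 0 without bio rep 3, the siPool 2 library of bio rep 3, the non-targeting library of bio rep 1 or 3, or the block. With upper quartile factors 5 were called higher. In the main fit 4.97% of all tested genes were called higher.

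The remaining lists had 0 or 1 call each, where 10.2% of all tested genes were called. Of 24 tested interferon response genes 1 was called higher, XAF1 (log2 change 0.64 ± 0.18), and the median log2 change was 0.05. Of 23 cholesterol synthesis genes 1 was called lower, ACAT2 (log2 change -0.32 ± 0.10), and of 7 replication-dependent histone genes 1 was called higher, HIST1H2BK (log2 change 0.40 ± 0.12). Each of these 3 was lost in at least 5 of the 9 left-out fits and without the block, and 5 cholesterol synthesis genes were called lower without bio rep 1 or its siPool 2 library. Of 13 mitochondrially encoded genes 0 were called by edgeR, with a median log2 change of 0.00, and their share of counts was 4.85% to 5.20% with siPool 2 and 4.91% to 5.01% with the non-targeting pool.

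The 2 TAL1 pools were then compared with each other, which needs no non-targeting library as its baseline. In that comparison 2431 of 16688 genes were called (14.6%), 1183 higher and 1248 lower with siPool 2. The number was 970 without bio rep 2, 1402 without bio rep 3, 1307 or 1465 without the siPool 2 library of bio rep 2 or 3, and 1348 or 1568 without the siPool 1 library of bio rep 2 or 3. Without the block it was 461. Of the pool differences given here, those of GATA1, ATP13A3, GSTP1, PLEKHA6, KCNK17, BMF, SYTL1, CAPN5, ARHGEF40, GINS2, MCM4, RRM2, KIF11, BBC3 and HBG2 were not called without the block. Against the shared non-targeting libraries, siPool 1 gave 2888 calls (17.3%), set beside the 1694 of siPool 2. For TAL1, HBE1, HBA1, HBA2, CA1, BLVRB, CA2, KLF1, ALAS2, CST7, NEDD9, SLA, AHNAK and MYCN the log2 difference between the pools did not pass the test, which does not show that the pools acted alike on them. HBG2 was slightly less low with siPool 2 (log2 difference 0.26 ± 0.07, adjusted p = 0.0153), a call that leaving out a library or a bio rep number ended in 6 of 12 fits.

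Of the 10 genes named for their difference between the pools, the 5 largest each way, 8 were called against the non-targeting pool with siPool 1 and not with siPool 2. CAPZA1, a subunit of the actin capping protein, had 449.9, 361 and 335 CPM in siPool 2 libraries, 144, 126 and 122 in siPool 1 libraries and 437, 371 and 385 in non-targeting libraries. Only the siPool 1 libraries were low (log2 change -0.06 ± 0.06, adjusted p = 0.560 with siPool 2 and -1.61 ± 0.06, adjusted p = 1.40e-17 with siPool 1; log2 difference 1.54 ± 0.06, adjusted p = 4.37e-17). FST, follistatin, an inhibitor of activins, had 6.23, 4.04 and 2.76 CPM in siPool 2 libraries, 17.2, 12.7 and 13.98 in siPool 1 libraries and 4.92, 2.86 and 5.19 in non-targeting libraries, and here only the siPool 1 libraries were high (log2 difference -1.75 ± 0.19, adjusted p = 1.77e-07). PMP22, a myelin and epithelial membrane protein, had 5.51, 3.07 and 3.55 CPM in siPool 2 libraries, 15.9, 12.97 and 11.05 in siPool 1 libraries and 4.77, 4.35 and 3.17 in non-targeting libraries and showed the same order (log2 difference -1.72 ± 0.17, adjusted p = 3.81e-08). S1PR1, a receptor for sphingosine phosphate, had 3.67, 2.71 and 2.695 CPM in siPool 2 libraries, 11.6, 8.603 and 8.07 in siPool 1 libraries and 2.44, 1.79 and 2.14 in non-targeting libraries. It was higher with siPool 1 than with siPool 2 (log2 difference -1.64 ± 0.19, adjusted p = 5.82e-07).

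HSPA7, which resembles other heat shock genes in sequence and so has uncertain counts, had a log2 difference of -1.71 ± 0.15 (adjusted p = 4.43e-09). RP11-421F16.3 (log2 difference 1.44 ± 0.16, adjusted p = 3.90e-07), CAMK2N1, an inhibitor of a calcium-dependent kinase (1.43 ± 0.19, adjusted p = 4.81e-06), and SUMF1, which activates sulfatases (1.33 ± 0.16, adjusted p = 7.17e-07), were higher with siPool 2 than with siPool 1 and, with siPool 2, were not called against the non-targeting pool. PAPPA, a metalloprotease that cleaves binding proteins of insulin-like growth factors, had 19.5, 29.3 and 32.95 CPM in siPool 2 libraries, 10.1, 10.9 and 10.4 in siPool 1 libraries and 14.01, 18.7 and 17.3 in non-targeting libraries. It was called with both pools, in opposite directions (log2 change 0.69 ± 0.12, adjusted p = 2.20e-04 with siPool 2 and -0.66 ± 0.13, adjusted p = 3.64e-04 with siPool 1; log2 difference 1.35 ± 0.12, adjusted p = 9.59e-09). The rise of PAPPA with siPool 2 was not called without the block (adjusted p = 0.0896).

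**Figure D4:**
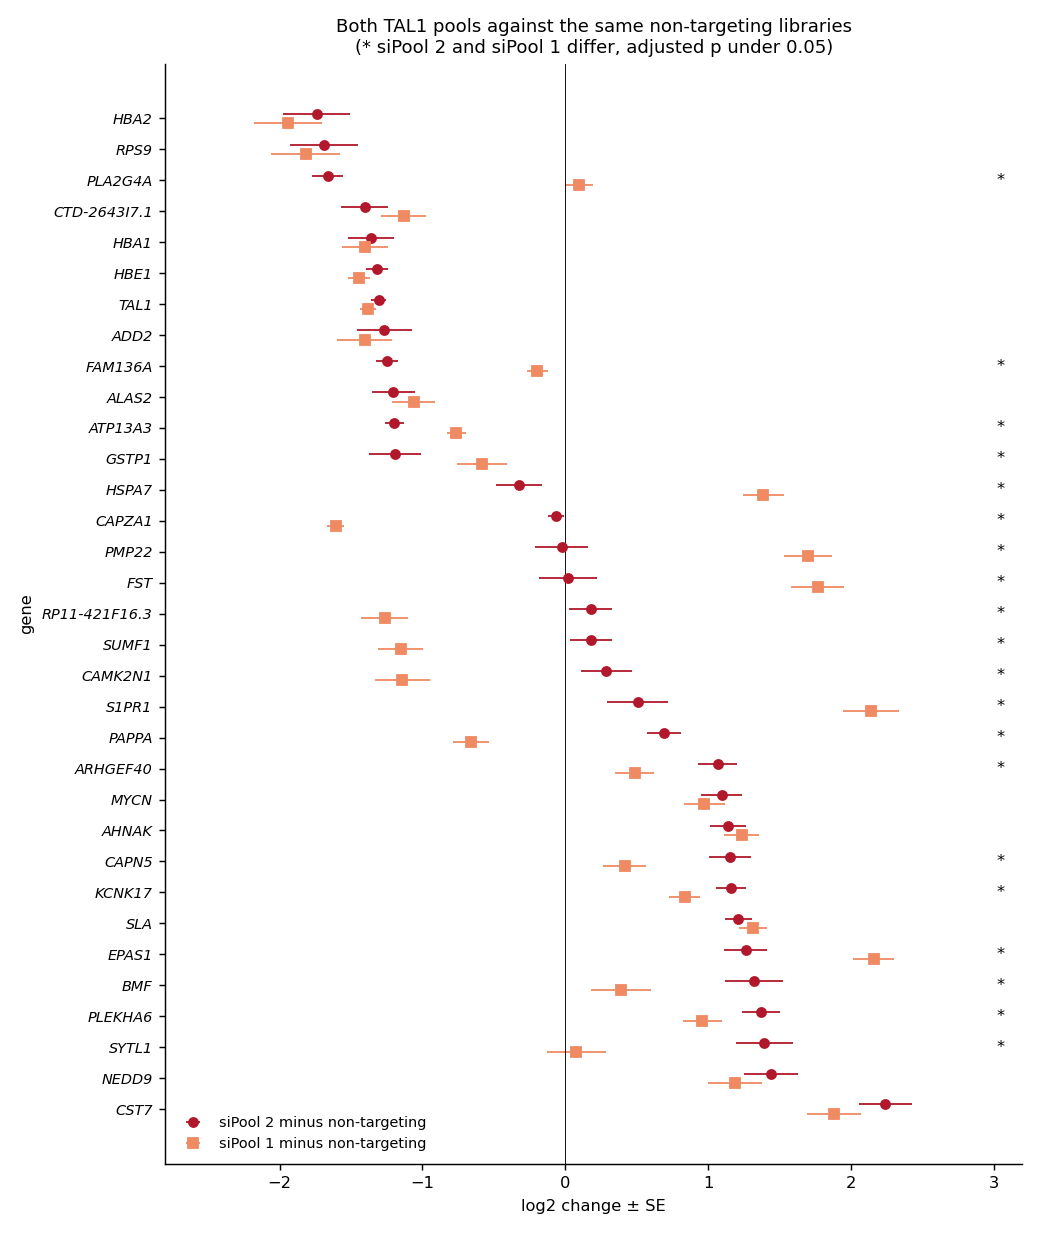
Log2 change ± SE (horizontal axis) with siPool 2 (red circles) and siPool 1 (orange squares), each minus the same 3 non-targeting libraries, for the 12 largest falls, the 12 largest rises and the 5 largest differences each way between the pools (rows). Asterisks mark genes whose difference between the pools was called. TAL1, HBE1 and SLA have like values with both pools, whereas PLA2G4A is low with siPool 2 and CAPZA1 with siPool 1.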

How the data were processed

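HEL libraries were made from polyA RNA, per the labels. For the 9 HEL libraries the authors deposited raw counts over 57820 genes, and all 9 columns were matched to samples by library name. STAR and featureCounts, after FastQC, were run on the build hg19, per the submitters' processing notes, and versions, annotation and strand setting are not given in the sources used here. Without strand, reads of a gene and of an antisense gene over it cannot be separated, and near-identical copies (globins, glycophorins, RHD and RHCE, TPSAB1, histone and ribosomal protein genes) may share reads.

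From the deposited counts, 16688 genes passed filterByExpr and were fitted with TMM factors in edgeR 4.0.16 (R 4.3.3; quasi-likelihood test, robust) in 1 model of the 9 libraries with bio rep number as a block. Adjusted p-values are Benjamini-Hochberg values over all tested genes, called under 0.05, and the standard error is the log2 change divided by the square root of F. The depth of 15.9 to 27.0 M counts limits precision for scarce genes such as PKLR. The scripts were tested on simulated data.

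The bio rep numbers are the labels' own. Deviations from the group means of same-numbered siPool 2 and non-targeting libraries correlated at 0.36, 0.098 and 0.094 for bio reps 1, 2 and 3 across genes. The siPool 2 library of bio rep 3 correlated better with the non-targeting library of bio rep 2 (0.21). That of bio rep 2 correlated slightly better with the non-targeting library of bio rep 3 (0.104), so only bio rep 1 matched its own number best. The pairing therefore rests on the stated design and on bio rep 1 standing apart, and calls lost without the block are named beside the genes or lists concerned.

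Genes named were TAL1, PLA2G4A, PKLR, LMO2, LDB1, LYL1 and GATA1, the 12 largest called changes each way with a mean of at least 5 CPM and 1 sign in all 3 pairs (log2 CPM with a prior count of 2), the 5 largest each way between the TAL1 pools, and up to 4 called members per list by adjusted p, or the most abundant member where none was called. A few genes that this rule names are not reported here. PECAM1 was not matched, and ACKR1 was matched by an older symbol. Members and gene lists were chosen with earlier results of these data known. Alternatives were the fit without the block, the 6 compared libraries alone, other scaling factors, DESeq2 1.42.0, other low-count filters, and fits that left out each library or bio rep number. These last, 9 for siPool 2 against the non-targeting pool, are called left-out fits. Against siPool 1 there were 12, since each siPool 1 library was also left out. Those 12 include fits without a non-targeting library, which is not among the libraries compared there.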

Additional observations from a re-analysis of the deposited data

How the results depend on the processing

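The block decided most calls. Without the replicate block, siPool 2 against the non-targeting pool gave 176 calls (82 higher, 94 lower) and siPool 2 against siPool 1 gave 461 (180 higher, 281 lower). The pairing check is given with the processing. Left-out fits gave 731 to 1556 calls (398 to 755 higher, 333 to 801 lower) against the non-targeting pool and 970 to 2514 (445 to 1261 higher, 525 to 1342 lower) against siPool 1. Other settings stayed within 1.5 times of the 1694 calls: 2213 with the 6 compared libraries alone, 1693 with RLE factors, 1688 with upper quartile factors (961 higher, 727 lower), 1702 with DESeq2, 1617 without a low-count filter and 1812 at 1 CPM or more. A block of bio rep 1 against bio reps 2 and 3, chosen after seeing the data, gave 1889 calls and, against siPool 1, 2618. No named gene changed sign while called. Of 94 named genes called, 50 were called in all left-out fits and 35 of those also without the block and in every other setting. The cause of these losses was not tested.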
